A study of Homo sapiens with 4 samples.

Results

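The Notch genes described here are the receptor genes NOTCH1, NOTCH2 and NOTCH3, the ligand genes JAG1, DLL1 and DLL3, and the repressor genes HES1, HES4, HES6 and HEY1. Every probe set whose platform gene symbol is exactly one of these 10 names was taken, which gave 31 probe sets for 10 of the 18132 genes on the array. The samples were U87MG cells, an established human glioblastoma line, profiled on 4 Affymetrix PrimeView arrays. In 2 samples the cells carried a vector expressing NeuroD2, a basic helix-loop-helix transcription factor of neuronal differentiation, and in 2 samples they carried the PCMV control vector. All 4 cultures were kept at 0.2% oxygen in medium with serum, and RNA was taken 48 hours after transfection. The labels number the samples as biological replicates 1 and 2 of each group without saying whether they came from separate cultures, so that the p-values measure only the spread between these samples, which may be technical. All cells come from 1 line, and the share of cells that took up a vector is not given in the sources used here. Less RNA per cell and fewer cells that make it cannot be told apart in such samples.

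Notch receptors are single-pass membrane proteins that are cut when a ligand of the Jagged or Delta family on a neighbouring cell engages them. The released intracellular part enters the nucleus, joins the DNA-binding protein RBPJ and a Mastermind coactivator, and switches on genes of the HES and HEY families. HES and HEY proteins are themselves basic helix-loop-helix repressors and hold back proneural factors, the class to which NeuroD2 is related, so that active Notch keeps neural progenitors undifferentiated. HES6 is an exception, since in mouse it counteracts Hes1 and favours neuronal differentiation. The comparison asks how this system's transcripts stood in hypoxic glioblastoma cells with and without extra NeuroD2.

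The promoters below are those of NOTCH1, NOTCH2 and HES6, which had the lowest adjusted p-values of the 10 genes, and of HES1, the classical Notch target. They were chosen after the values were seen. Each is the RefSeq sequence of build GRCh38.p14 from 250 bases before to 50 bases after the gene's start, written 5′ to 3′ on the gene's own strand, and the table held such a promoter for 7 of the 10 genes. Capitals mark 4 searched motifs on both strands. They are TGGGAA, the core bound by RBPJ, the E-boxes CAGATG and CAGCTG, which NeuroD factors are known to bind, and CACNAG, the N-box bound by HES repressors.
NOTCH1: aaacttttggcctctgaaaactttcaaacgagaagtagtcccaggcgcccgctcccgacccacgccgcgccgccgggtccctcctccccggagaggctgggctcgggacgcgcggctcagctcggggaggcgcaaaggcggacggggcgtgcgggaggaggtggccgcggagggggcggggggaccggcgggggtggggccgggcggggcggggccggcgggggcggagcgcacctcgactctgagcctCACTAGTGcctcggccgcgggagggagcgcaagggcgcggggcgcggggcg
NOTCH2: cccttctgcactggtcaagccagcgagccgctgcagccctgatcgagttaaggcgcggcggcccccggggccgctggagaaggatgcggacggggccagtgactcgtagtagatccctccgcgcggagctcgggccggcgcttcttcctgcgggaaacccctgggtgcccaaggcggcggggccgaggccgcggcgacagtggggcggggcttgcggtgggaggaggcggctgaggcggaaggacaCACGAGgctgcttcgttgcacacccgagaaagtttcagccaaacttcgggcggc
HES6: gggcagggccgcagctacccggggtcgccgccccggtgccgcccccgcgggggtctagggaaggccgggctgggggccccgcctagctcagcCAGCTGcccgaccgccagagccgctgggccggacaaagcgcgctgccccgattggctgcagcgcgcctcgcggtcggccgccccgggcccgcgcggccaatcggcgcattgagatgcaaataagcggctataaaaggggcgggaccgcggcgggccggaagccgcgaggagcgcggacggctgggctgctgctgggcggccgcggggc
HES1: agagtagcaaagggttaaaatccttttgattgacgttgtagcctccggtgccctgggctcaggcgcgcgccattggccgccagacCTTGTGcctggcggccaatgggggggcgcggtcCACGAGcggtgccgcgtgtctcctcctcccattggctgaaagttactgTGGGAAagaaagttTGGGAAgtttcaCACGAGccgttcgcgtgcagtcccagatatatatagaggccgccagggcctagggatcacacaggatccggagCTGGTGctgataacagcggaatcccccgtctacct
The NOTCH1 promoter lies on the minus strand at chr9:136545999-136546298, that of NOTCH2 on the minus strand at chr1:120069613-120069912, that of HES6 on the minus strand at chr2:238239989-238240288 and that of HES1 on the plus strand at chr3:194135898-194136197. HES1 held 2 RBPJ cores, beginning at positions -84 and -70 from the start, and 4 N-boxes. HES6 held 1 E-box of the form CAGCTG, at position -158. In NOTCH1 the capitals are 2 N-boxes that overlap each other at the start of the gene, and in NOTCH2 they are 1 N-box at position -4. Of all 27305 promoters in the table, 24.3% held an RBPJ core, 17.7% held CAGCTG, 14.8% held CAGATG and 38% held an N-box. These matches are letters in a window and were not tested for binding.

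The values are the authors' deposited log2 probe set values, and a difference of 1 is a doubling. NEUROD2 itself checks the labels. On 1 of its 3 probe sets it read 7.37 and 7.82 with the NeuroD2 vector, against 5.46 and 5.35 with the control vector (difference 2.19, adjusted p = 0.0063 by limma). On the others the differences were -0.07 and -0.21, neither passing. Without control replicate 1 its difference was 2.25 (adjusted p = 0.175) and without control replicate 2 it was 2.14 (adjusted p = 0.172), and in those fits 0 of 44988 probe sets passed by limma, although 9822 and 9207 had an unadjusted p below 0.05. Averaging its 3 probe sets gave a difference of 0.64 (adjusted p = 0.0130). Of the glial and mesenchymal markers, VIM read between 13.98 and 14.15 with the NeuroD2 vector and between 13.97 and 14.18 with the control vector. The astrocyte marker GFAP read between 3.26 and 6.35 with the NeuroD2 vector and between 3.05 and 6.13 with the control vector, and no detection call was used to say whether it was present. The leukocyte marker PTPRC read between 3.03 and 3.53 with the NeuroD2 vector and between 2.90 and 3.47 with the control vector. Of the other leukocyte markers, CD68 read between 9.06 and 10.21 with the NeuroD2 vector and between 9.01 and 10.13 with the control vector. AIF1 read between 3.43 and 5.31 with the NeuroD2 vector and between 3.35 and 5.35 with the control vector. Among the other marker probe sets, 7 of 8 for FN1 and 1 of 4 for the neuronal gene SNAP25 fell, against 1.70% of all probe sets. With either NeuroD2 array left out, or with the replicate number as a block, 0 of these 8 and 0 of these 4 passed. In the fit to all 4 arrays, CD44 differed by 0.03 to 0.31 on its 10 probe sets and OLIG2 by 0.39 on 1. NES differed by -0.25 to -0.03, S100B by -0.07 to 0.18 and SOX2 by 0.08 to 0.13. No probe set of these glial and mesenchymal markers passed. The hybridisation spikes, RNA added just before hybridisation, were brighter on both NeuroD2 arrays (10.10 and 10.13) than on the control arrays (9.56 and 9.90). The labelling spikes were lowest on control replicate 1, at 6.95, against 7.96 to 8.03 on the other 3 arrays. Those values move with the groups or with 1 array, and their part in the results below was not tested.

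None of the 31 probe sets of the Notch genes passed an adjusted p of 0.05 in limma's fit over 44988 probe sets, in which 1361 (3.03%) passed, 1.32% of all probe sets as higher and 1.70% as lower. At an unadjusted p below 0.05 there were 9 of the 31, against 19.9% of all probe sets. The groups did not overlap for 17 of the 31, against 49.4% of all probe sets, a share near the background. The median absolute difference was 0.12 for the Notch probe sets and 0.11 for all. The differences ran from -0.44 for HES6 to 0.42 for NOTCH1, and those of NOTCH1, HES6 and 3 probe sets of NOTCH2 had adjusted p-values between 0.0545 and 0.0912. When each gene was represented by its brightest probe set, NOTCH1 and HES6 passed (adjusted p = 0.0397 and 0.0405), 2 of 10 genes against 4.77% of all genes. When the probe sets of each gene were averaged, HES6 alone of the 10 passed (adjusted p = 0.0201), against 6.55% of all genes. These calls therefore depend on how the probe sets are used.

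**Figure D1:**
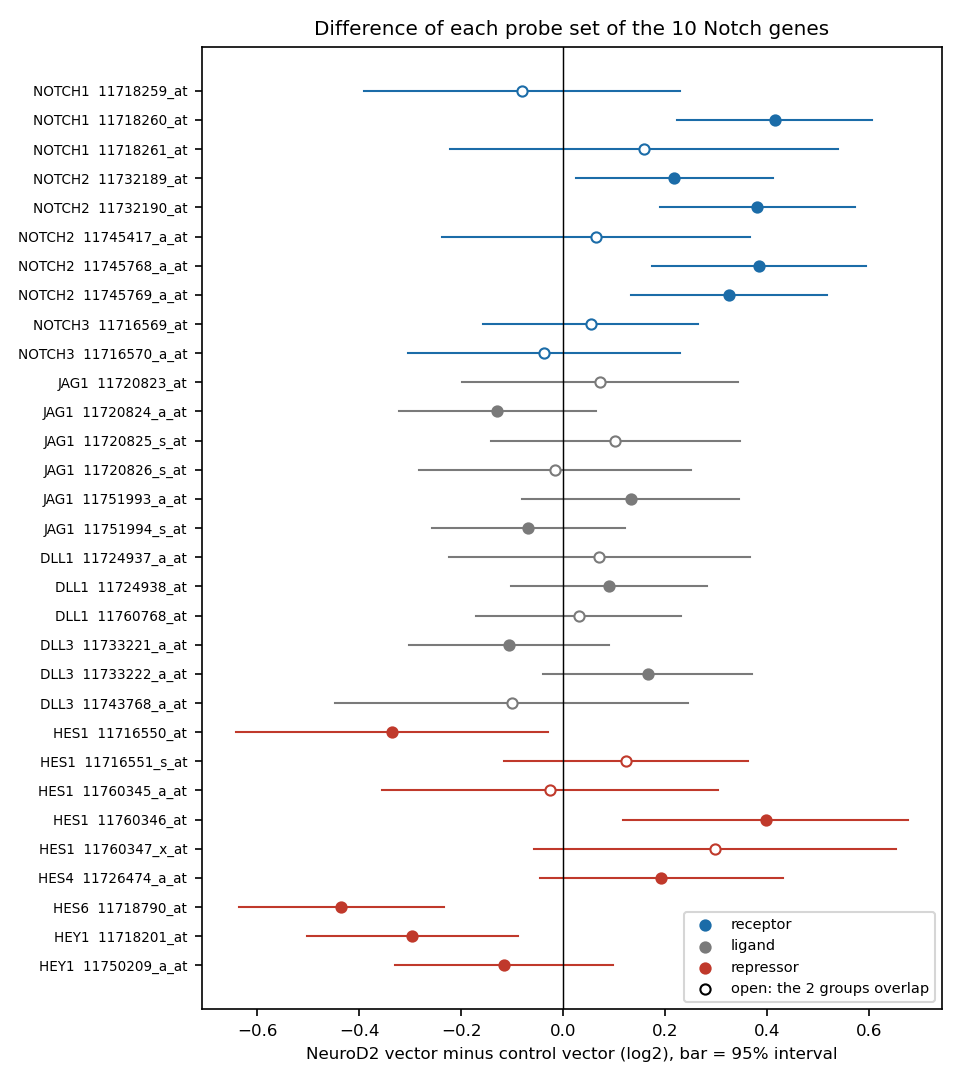
Difference between the NeuroD2 and control vectors (log2, horizontal axis) for each of the 31 probe sets, with the 95% interval from limma as a bar, 2 arrays per group. Filled points mark probe sets whose groups do not overlap. NOTCH2 lies right of 0 on all 5 probe sets, HES6 and HEY1 lie left of 0, and the ligands stay between -0.13 and 0.17.

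The receptor genes had a positive difference on 8 of 10 probe sets, against 23299 of all 44988. Of the 10, 5 had an unadjusted p below 0.05 by limma, all of them higher, against 4214 of all 44988 as higher. These 5 are 4 probe sets of NOTCH2 and 1 of NOTCH1, with 0 of NOTCH3, and probe sets of 1 gene are not independent. NOTCH2, a receptor expressed in many tissues and in neural progenitors, was measured by 5 probe sets with a single symbol, and all 5 had a positive difference. Its probe set 11745768_a_at read 9.61 and 9.62 with the NeuroD2 vector, against 9.30 and 9.16 with the control vector. Both NeuroD2 arrays stood above both control arrays, and the mean was 9.62 ± 0.002 with the NeuroD2 vector and 9.23 ± 0.10 with the control vector (SD, n = 2 each). The difference was 0.38, or 1.30-fold, with a 95% interval of 0.17 to 0.59 (adjusted p = 0.0775 by limma).

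The probe set 11732190_at, designed on the RefSeq NOTCH2 mRNA, read 6.20 and 6.26 with the NeuroD2 vector, against 5.84 and 5.86 with the control vector. That is again a difference of 0.38 without overlap (interval 0.19 to 0.57, adjusted p = 0.0649). On 11745769_a_at the levels were 7.78 and 7.72 with the NeuroD2 vector and 7.43 and 7.42 with the control vector, a difference of 0.32 (adjusted p = 0.0912). The brightest probe set, 11732189_at, read 10.56 and 10.63 with the NeuroD2 vector, against 10.36 and 10.39 with the control vector. The groups were apart there too, but the difference was smaller, 0.22 (adjusted p = 0.205), and it is the one that stands for NOTCH2 when 1 probe set a gene is used. Only 11745417_a_at overlapped, with 4.39 and 4.52 with the NeuroD2 vector and 4.54 and 4.24 with the control vector. Each of these values lay below its own array's mean of 23 background probe sets. Single values of those background probe sets ran from 2.79908 to 10.9969, so their mean is not a detection limit. Whether 11745417_a_at could show a change was not tested. Averaging the 5 NOTCH2 probe sets gave 0.27 (adjusted p = 0.0720). With low-level probe sets left out of the fit, 3 of the NOTCH2 probe sets passed, with adjusted p-values between 0.0165 and 0.0255. In that fit 3853 of all 22494 probe sets passed by limma, against 1361 of 44988 in the main fit. The gene has partial human copies of the NOTCH2NL family, and whether these 5 probe sets also read those copies was not tested.

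NOTCH1, the receptor best known from neural stem cells and T cells, was read differently by its 3 probe sets. On 11718260_at, designed on the RefSeq mRNA, it read 7.54 and 7.58 with the NeuroD2 vector, against 7.12 and 7.16 with the control vector. The groups were far apart relative to their spread, with means of 7.56 ± 0.03 with the NeuroD2 vector and 7.14 ± 0.03 with the control vector (SD, n = 2 each). The difference of 0.42 was 1.33-fold, with an interval of 0.22 to 0.61 and an adjusted p of 0.0545. The other probe sets did not show it. On 11718261_at the levels were 5.51 and 5.21 with the NeuroD2 vector and 5.37 and 5.02 with the control vector, and on 11718259_at they were 4.02 and 3.90 with the NeuroD2 vector and 4.20 and 3.88 with the control vector. Both overlapped, with differences of 0.16 and -0.08. The values of 11718259_at lay below the mean of the background probe sets on every array, and whether it could show a change was not tested. Averaging all 3 gave 0.16 (adjusted p = 0.373), so the NOTCH1 difference rests on 1 probe set.

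NOTCH3, a receptor known from vascular smooth muscle and from gliomas, overlapped on both of its probe sets. The brighter one read 6.57 and 6.58 with the NeuroD2 vector, against 6.75 and 6.48 with the control vector. Its difference was -0.04 with an interval of -0.30 to 0.23, and without control replicate 1 it was 0.10. The other probe set differed by 0.05, with an interval of -0.16 to 0.26. The intervals of the 2 probe sets do not reach a 1.33-fold rise, the size read for NOTCH1. The second probe set read between 3.83 and 3.98, below the mean of the background probe sets on every array. Whether it could show a change in NOTCH3 was not tested.

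**Figure D2:**
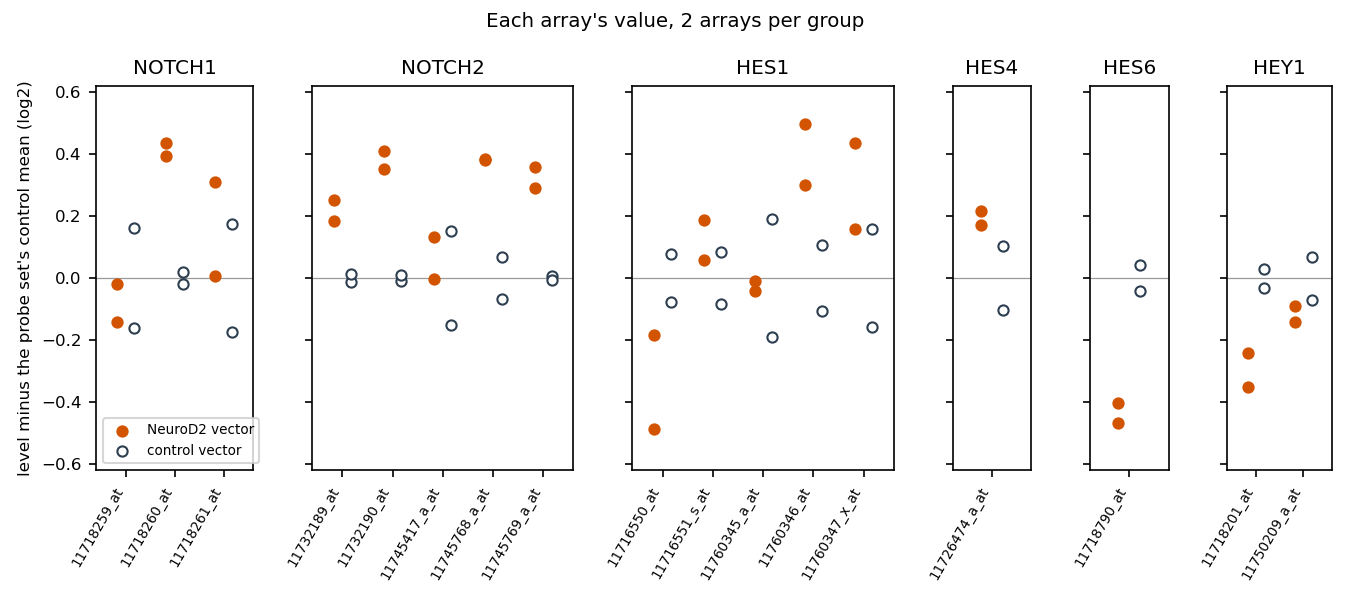
Each array's value minus that probe set's control mean (log2, vertical axis), for every probe set of NOTCH1, NOTCH2, HES1, HES4, HES6 and HEY1. Filled points are the 2 NeuroD2 arrays and open points the 2 control arrays. The NeuroD2 points stand above the control points on 4 of 5 NOTCH2 probe sets and below them for HES6 and HEY1, while the HES1 probe sets go both ways.

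The ligand genes were the flattest. Of their 12 probe sets, 0 had an adjusted p below 0.05 and 0 an unadjusted p below 0.05 by limma, against 3.03% and 19.9% of all. Their differences ran from -0.13 to 0.17. The median absolute difference was 0.10, against 0.11 over all probe sets. JAG1, the Jagged ligand that activates Notch in neural and vascular tissue, had 6 probe sets, 3 with a positive and 3 with a negative difference. The brightest read 6.98 and 7.13 with the NeuroD2 vector, against 6.87 and 7.04 with the control vector, overlapping groups with a difference of 0.10 and an interval of -0.14 to 0.35. On 11720824_a_at the groups were apart, with 5.61 and 5.69 with the NeuroD2 vector and 5.77 and 5.79 with the control vector (difference -0.13, adjusted p = 0.432). The JAG1 probe set 11751993_a_at read between 3.26 and 3.47, below the mean of the background probe sets on every array. Whether ligand probe sets at such low levels could show a change was not tested.

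DLL1, a Delta ligand that activates Notch on neighbouring progenitors, differed by 0.03 to 0.09 on its 3 probe sets. The widest interval among them, that of the brightest, ran from -0.22 to 0.37. DLL3, a divergent Delta protein that inhibits Notch within its own cell rather than activating it next door, had differences of -0.11, 0.17 and -0.10. Its brightest probe set read 5.91 and 5.82 with the NeuroD2 vector, against 5.74 and 5.66 with the control vector, apart but small (adjusted p = 0.344). The DLL3 probe set 11733221_a_at read between 3.72 and 3.88, below the mean of the background probe sets on every array. Averaging the 3 DLL3 probe sets gave -0.01, of the opposite sign to its brightest probe set. For all 3 ligand genes, the highest upper bound of an interval was 0.37. Leaving out 1 control array turned the sign on 5 of the 12 ligand probe sets.

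The repressor genes showed the widest spread, from -0.44 to 0.40. Their median absolute difference was 0.30, against 0.11 over all probe sets. Of their 9 probe sets, 4 had an unadjusted p below 0.05 by limma, 1 higher and 3 lower, against 19.9% of all. HES6 was measured by 1 probe set, 11718790_at, designed on the RefSeq mRNA. It read 8.43 and 8.37 with the NeuroD2 vector, against 8.88 and 8.79 with the control vector. Both NeuroD2 arrays stood below both control arrays, with means of 8.40 ± 0.05 with the NeuroD2 vector and 8.84 ± 0.06 with the control vector (SD, n = 2 each). The difference was -0.44, or a ratio of 0.739 of the NeuroD2 level to the control level, with an interval of -0.64 to -0.23 (adjusted p = 0.0548 by limma). Leaving out any 1 array kept it between -0.48 and -0.39. It passed under 4 of 13 alternatives, with adjusted p-values over all of them from 0.0110 to 0.347. Its promoter is the one above that holds a CAGCTG E-box, present in 17.7% of promoters.

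HEY1, a partner of HES proteins and a target of Notch in vessels and brain, was lower on both probe sets. On 11718201_at, designed on the RefSeq mRNA, it read 5.89 and 5.78 with the NeuroD2 vector, against 6.10 and 6.16 with the control vector. The difference was -0.30 with an interval of -0.50 to -0.09 (adjusted p = 0.129). On 11750209_a_at the levels were 4.43 and 4.48 with the NeuroD2 vector and 4.50 and 4.64 with the control vector. Those groups were also apart, by less (difference -0.12, adjusted p = 0.528), and without control replicate 2 the difference there was -0.05. Except on control replicate 2, the values of 11750209_a_at lay below their array's mean of the background probe sets.

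HES1, the repressor through which Notch most directly silences proneural genes, gave opposite readings. Its probe set on the RefSeq mRNA, 11716550_at, read 5.59 and 5.90 with the NeuroD2 vector, against 6.16 and 6.004 with the control vector, a difference of -0.34 (interval -0.64 to -0.03, adjusted p = 0.213). Without NeuroD2 replicate 1 that difference was -0.18. A probe set on another source sequence, 11760346_at, read 4.18 and 3.99 with the NeuroD2 vector, against 3.80 and 3.58 with the control vector, a difference of 0.40 (interval 0.12 to 0.68, adjusted p = 0.130). In both the groups were apart, in opposite directions. The array means of 23 background probe sets were 4.62 and 4.58 with the NeuroD2 vector and 4.56 and 4.44 with the control vector. On all 4 arrays 11760346_at read below these means, which are not a detection limit. The 2 further probe sets designed on that same source sequence overlapped, with differences of 0.30 and -0.03, and 11716551_s_at overlapped with 0.12. The mean of all 5 was 0.09 (adjusted p = 0.595). No direction is therefore given for HES1.

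HES4, a human family member with no mouse counterpart, had 1 probe set, which read 6.78 and 6.73 with the NeuroD2 vector, against 6.67 and 6.46 with the control vector. The groups were apart, with a difference of 0.19 and an interval of -0.05 to 0.43 (adjusted p = 0.344). The difference moved from 0.09 without control replicate 2 to 0.29 without control replicate 1, so the control arrays set its size.

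**Figure D3:**
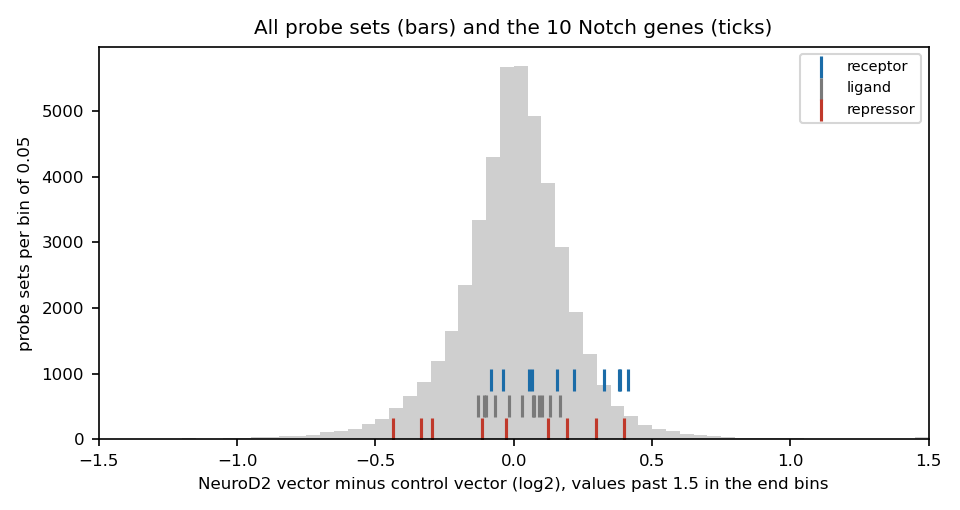
Number of probe sets (vertical axis) by difference between the NeuroD2 and control vectors (log2, horizontal axis, bins of 0.05) for all 44988 probe sets as bars, with the Notch receptors, ligands and repressors as ticks. Differences past 1.5 in either direction are counted in the end bins. The ligands lie in the middle of the distribution. The outermost ticks are HES6 at -0.44 and 1 NOTCH1 probe set at 0.42, well inside the distribution's range of -1.66 to 4.28. HES1 reaches from -0.34 to 0.40 and NOTCH2 from 0.06 to 0.38. The other NOTCH1 probe sets lie nearer the middle, at -0.08 and 0.16.

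The other genes of the pathway were taken from a list of 51 genes by role, of which 48 were measured, on 140 probe sets. Of these, 1 probe set rose and 1 fell by limma and the others did not pass, against 3.03% of all probe sets. At an unadjusted p below 0.05 there were 25 of the 140, 8 higher and 17 lower, against 19.9% of all, and the median difference was -0.002. SPEN, a large corepressor that keeps RBPJ targets silent when Notch is inactive, rose on 11758513_s_at. That probe set read 7.44 and 7.54 with the NeuroD2 vector, against 6.87 and 6.96 with the control vector (difference 0.57, adjusted p = 0.0341). The other SPEN probe sets were also higher without overlap, by 0.60 and 0.14, neither passing. TLE4, a Groucho corepressor that HES proteins recruit, fell on 11719995_a_at, which read 4.33 on both NeuroD2 arrays, against 4.83 and 4.81 on the control arrays (difference -0.49, adjusted p = 0.0363). Its other probe sets differed by -0.29 and -0.06, neither passing. The NeuroD2 values of this TLE4 probe set lay below the mean of the background probe sets. Both calls were lost when either NeuroD2 array was left out, with adjusted p-values of up to 0.279 for TLE4 and 0.256 for SPEN, while the SPEN difference stayed between 0.52 and 0.62 and the TLE4 difference at -0.49. With the replicate number as a block they were also lost (0.0912 for TLE4 and 0.0747 for SPEN).

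The proteases that cut Notch were read by 31 probe sets of sheddases and gamma-secretase subunits, and 0 of them passed by limma. At an unadjusted p below 0.05 there were 10, all lower, against 4744 of all 44988 probe sets as lower. Of the 10, 4 belong to ADAM10 and 5 to APH1B. The groups were apart on 21, 14 lower and 7 higher, against 24.5% of all probe sets apart as lower and 24.9% as higher. ADAM10, the metalloprotease that makes the first ligand-dependent cut, was lower on all 4 probe sets, by -0.37 to -0.23. Its probe set with the largest difference read 7.76 and 7.72 with the NeuroD2 vector, against 8.11 and 8.10 with the control vector (difference -0.37, adjusted p = 0.0679). APH1B, a subunit of the gamma-secretase that makes the final cut, was lower without overlap on all 6 probe sets, by -0.32 to -0.20, with adjusted p-values of 0.117 and above. Probe sets of 1 gene read the same transcripts and are not independent. APH1A, another gamma-secretase subunit, had negative differences on all 7 probe sets, from -0.29 to -0.01. On 3 of them the groups were apart, and 1 had an unadjusted p below 0.05 by limma. The other members did not all share this direction. ADAM17, the other sheddase, had positive differences on 3 of 4 probe sets, and PSEN2, a catalytic subunit, on 5 of 6, with 4 apart and higher. APH1B, APH1A, ADAM17 and PSEN2 were named after their values were seen.

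In the remaining roles 0 probe sets passed. The largest differences were 0.42 for DTX4, a Deltex ubiquitin ligase (adjusted p = 0.0956), and -0.31 for POGLUT1, which glucosylates Notch (adjusted p = 0.113). In the nuclear complex it was 0.31 for the Mastermind coactivator MAML3 (adjusted p = 0.228). Among the other HES and HEY repressors it was 0.18 for HES2 (adjusted p = 0.406), and among the other ligands and receptors -0.18 for JAG2 (adjusted p = 0.434). NRARP, a feedback inhibitor that Notch signalling induces, overlapped on both probe sets, with differences of 0.005 and -0.10. Leaving out 1 array moved JAG2 between -0.046 without control replicate 1 and -0.307 without control replicate 2. For MAML3 the difference was 0.17 with control replicate 1 left out and 0.45 with control replicate 2 left out. HES2 was 0.092 without NeuroD2 replicate 1 and 0.095 without control replicate 2. Those MAML3 and HES2 probe sets read below the mean of the background probe sets on every array. The other probe sets differed by -0.13, -0.10 and 0.04 for MAML3 and by 0.02 and -0.008 for HES2. RBPJ, named after its values were seen, had 6 probe sets with a median difference of -0.16. Its brightest differed by 0.01 and overlapped, and on 3 the groups were apart and lower, by -0.12, -0.24 and -0.19, none passing. Of all probe sets, 24.5% were apart and lower.

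**Figure D4:**
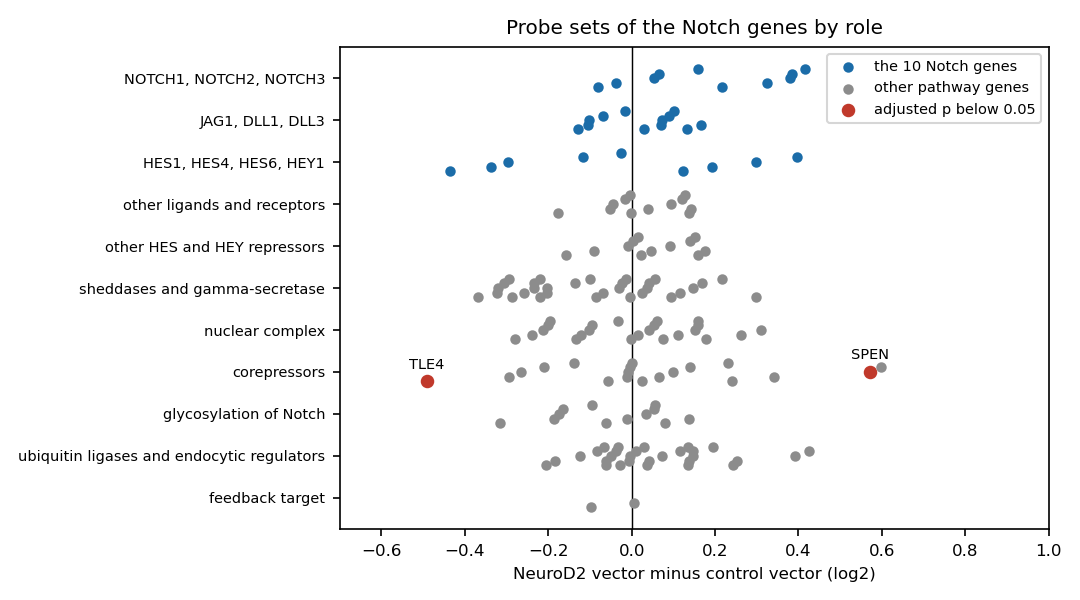
Difference between the NeuroD2 and control vectors (log2, horizontal axis) for each probe set of the 10 Notch genes and of the 48 other pathway genes, 1 line per role. Red points passed an adjusted p of 0.05. Only SPEN at 0.57 and TLE4 at -0.49 are red, and the gamma-secretase and sheddase line reaches down to -0.37.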

How the data were processed

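The authors deposited log2 probe set values for 4 arrays, 2 per group. That the unit is log2 was read from the values (2.65 to 14.29, array medians between 5.98 and 5.99). The software, background correction and normalization behind them are not given in the sources used, and no detection call or scan date was used. Of 49395 probe sets, the 44988 with 1 symbol in the platform annotation were tested. Those with several symbols (1832), with none (2473) and the Affymetrix controls (102) were left out. Groups were compared with limma 3.58.1 in R 4.3.3 (lmFit and eBayes, group as the only term, two-sided, 2 residual and 3.91 prior degrees of freedom), with Benjamini-Hochberg adjustment over all 44988 and a threshold of 0.05. The fit was tested on simulated data. With 2 arrays a group, exact permutation reaches p = 0.333 at the lowest, so it was not used. The 2 arrays per group limit the precision, and no sequencing depth applies.

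Named were every Notch gene listed, NEUROD2, and of the pathway list each gene with a probe set that passed or, per role with none, the largest difference. Genes named outside this rule are identified as such. The genes and lists were chosen with earlier results of these data known. Alternative fits used the replicate number as a block, each array left out in turn, quantile normalization, median centring, an intensity trend, a robust prior, leaving out low-level probe sets, 1 brightest probe set per gene, averaged probe sets per gene, and the table without s_at and x_at probe sets, which can match several transcripts. The labels number the replicates but name no shared batch, and the numbers were not taken as pairs. Promoters came from RefSeq (GRCh38.p14).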

Additional observations from a re-analysis of the deposited data

Results flagged for a closer look

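Besides the 5 NOTCH2 probe sets described, 4 probe sets are annotated to NOTCH2 together with its NOTCH2NL copies or neighbouring NBPF genes, and they entered no comparison because they cannot be assigned to 1 gene. On 3 of them both NeuroD2 arrays read above both control arrays, as they did on 24.9% of the 44988 probe sets with 1 symbol. The differences were 0.21 on 11719212_a_at, 0.28 on 11719213_s_at and 0.31 on 11752984_s_at. The brightest, 11719213_s_at, read 9.72 and 9.68 with the NeuroD2 vector, against 9.55 and 9.27 with the control vector. The remaining one, 11719214_s_at, overlapped, with a difference of -0.06. These differences were not tested.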

How the results depend on the processing

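The count of Notch probe sets that passed was 0 with the replicate block, median centring, a robust prior, any 1 array left out and without s_at and x_at probe sets. It was 1 with quantile normalization (NOTCH1), 3 with an intensity trend, 5 of 10 among probe sets at or above the median level, 2 of 10 genes with the brightest probe set and 1 of 10 with the mean of probe sets (HES6). Over all probe sets the count of 1361 became 139 with the replicate block, 3797 with an intensity trend, 3853 of the 22494 at or above the median level, 864 of 18132 genes with the brightest probe set and 907 without s_at and x_at probe sets. Leaving out 1 array gave 0 to 46, with 0 when a control array was dropped. By limma, dropping control replicate 1 left 9822 probe sets with an unadjusted p below 0.05 and a lowest adjusted p of 0.175, and dropping control replicate 2 left 9207 and 0.172. The pathway count of 2 became 0 with the replicate block, with the brightest probe set and without any 1 array, 5 with an intensity trend, 8 at or above the median level, 1 with the mean of probe sets (DTX4) and 1 without s_at and x_at probe sets. The replicate block also ended the calls of FN1 and SNAP25 (counted after seeing the data) and kept that of NEUROD2 (adjusted p = 0.0407 by limma). Replicate 1 minus replicate 2 correlated at 0.08 between the groups.

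The sign turned when a gene's probe sets were averaged for HES1 11716550_at (0.091), DLL3 11733222_a_at (-0.014) and NOTCH3 11716570_a_at (0.0079). It also turned when 1 array was left out for 10 of the 31 probe sets, none of which passed. Their ranges over the 4 arrays left out were -0.172 to 0.0955 for NOTCH3 11716570_a_at, -0.243 to 0.081 for NOTCH1 11718259_at, -0.017 to 0.333 for NOTCH1 11718261_at, -0.088 to 0.217 for NOTCH2 11745417_a_at, -0.216 to 0.163 for HES1 11760345_a_at, -0.063 to 0.208 for JAG1 11720823_at and -0.116 to 0.083 for JAG1 11720826_s_at. For DLL1 they were -0.090 to 0.231 on 11724937_a_at and -0.018 to 0.079 on 11760768_at, and for DLL3 -0.302 to 0.0996 on 11743768_a_at, each end being the value without 1 control array. NOTCH1 11718260_at and HES6 11718790_at kept their direction under all 13 alternatives. Fewer probe sets are tested among brighter ones, and 1 array fewer leaves 1 residual degree of freedom. The cause of these changes was not tested.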
